A study of Homo sapiens with 4 samples.

Results

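The amino acid stress response was examined in the human colon cancer cell line HT29 through 37 genes listed by their role: the transcription factor ATF4, its partners and feedback regulators, and genes reported as its targets in amino acid uptake, amino acid synthesis and tRNA charging. The genes were matched by symbol in the deposited tables, where all 37 were found among 53617 gene identifiers, each under a single identifier, with 357 transcripts between them and no failed entry. A gene's level was the sum of its transcripts in FPKM, which divides fragments by transcript length and by the mapped total of the library. The 4 libraries came from cells transfected at 50 nM with a miR-23b precursor (labelled high miR23b), its control, an antimir against miR-23b (labelled low miR23b) or its control, and every group held 1 library. All 4 cultures were HT29 of the same passages in McCoy medium with 5% serum, transfected with a lipid reagent, and RNA was taken after 48 h. A medium change at 24 h and a confluency of 90% are given for all 4 alike. The labels name the controls no further than as the respective control of either oligonucleotide. Precursors are synthetic RNAs that cells process into the mature microRNA, while antimirs are complementary oligonucleotides that keep it from its targets. The microRNA itself was not measured in these tables. The series asked which mRNAs depend on miR-23b. No difference below has a replicate check, so all are differences between 2 libraries and none was tested.

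When amino acids run short, uncharged tRNA activates the kinase GCN2 (gene EIF2AK4), which phosphorylates the initiation factor eIF2. PERK (EIF2AK3), PKR (EIF2AK2) and HRI (EIF2AK1) do the same under endoplasmic reticulum stress, double-stranded RNA and haem shortage. General translation then slows while ATF4 mRNA is translated better, and the ATF4 protein, paired with a C/EBP factor, binds C/EBP-ATF response elements in genes for amino acid transporters, amino acid synthesis and tRNA synthetases. ATF4 is thus controlled to a large part after transcription, and its mRNA need not follow its activity. In tumour cells the pathway is known for sustaining serine, asparagine and cystine supply.

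The microRNA under study is shown with its seed, bases 2 to 8, in capitals, beside its relative miR-23a-3p, which shares that seed. Both sequences are RefSeq's on GRCh38.p14, where miR-23b-3p lies at chr9:95085265-95085287 on the plus strand and miR-23a-3p at chr19:13836595-13836615 on the minus strand.
hsa-miR-23b-3p: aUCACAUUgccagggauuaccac
hsa-miR-23a-3p: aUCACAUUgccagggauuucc

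Sites that pair with this seed, written AATGTGA in the mRNA, were counted in GENCODE 29, taking a gene's longest 3' UTR. Of the 37 members, 5 held a site, each with 1 (13.5%), against 2508 of 11383 genes that passed the expression filter (22.0%). The median 3' UTR length was 949 bases for the members and 1589 bases for those genes. Other 3' UTRs and shorter matches were not searched, and the longest 3' UTR need not be on an expressed transcript. For TARS it is on ENST00000508361, listed at 0 in all 4 libraries. The ASNS site is on ENST00000454046, at 0.608 FPKM with the precursor, against 1.16 in its control. That transcript was at 1.17 FPKM with the antimir, against 1.13 in its control. The 5 sites are shown because they are the only matches found in the 3' UTRs searched, with the matched bases in capitals and GRCh38 coordinates.
ASNS (chr7:97852227-97852254, minus strand): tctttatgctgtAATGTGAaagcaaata
MTHFD2 (chr2:74217462-74217489, plus strand): gttgtaatgtaaAATGTGAccttacctc
SESN2 (chr1:28281264-28281291, plus strand): cattcacccatcAATGTGAaagtcaggg
SLC38A2 (chr12:46359007-46359034, minus strand): ctacagcaaattAATGTGAggaagctcc
SLC7A1 (chr13:29509544-29509571, minus strand): cacctttcaaaaAATGTGAaactgccct

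The promoters, 250 bases before to 50 after each RefSeq start on GRCh38.p14, were searched for the core of the C/EBP-ATF response element, TGATGNAA, or TTNCATCA where it lies on the other strand. Promoters were found for 30 of the 37 members, and 12 of these held the element in at least 1 promoter (40.0%). Of all 27305 genes with a promoter in that table, 1217 held it (4.46%), and of those that also passed the expression filter, 259 of 9508 (2.72%). The element was found in 5 of 8 tRNA synthetases, 3 of 5 transporters, 2 of 6 transcription factors, 1 of 4 stress regulators and 1 of 4 enzymes of asparagine, proline and sulfur amino acid metabolism, and in 0 of 3 genes of serine synthesis and mitochondrial folate metabolism. The members include genes reported as ATF4 targets, so these shares describe the list and are no test of it. The 12 stretches with the element are shown with the matched letters in capitals and each read along its gene's strand.
CHAC1 (chr15:40953251-40953280, plus strand): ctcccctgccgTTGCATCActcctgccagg
ASNS (chr7:97872458-97872487, minus strand): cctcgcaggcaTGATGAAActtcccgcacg
ATF3 (chr1:212565205-212565234, plus strand): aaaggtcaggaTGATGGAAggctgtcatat
CEBPG (chr19:33374060-33374089, plus strand): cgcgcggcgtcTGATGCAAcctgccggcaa
SLC1A5 (chr19:46784893-46784922, minus strand): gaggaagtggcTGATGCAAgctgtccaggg
SLC3A2 (chr11:62881725-62881748, plus strand): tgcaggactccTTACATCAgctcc
SLC7A1 (chr13:29595663-29595692, minus strand): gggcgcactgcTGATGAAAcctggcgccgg
AARS (chr16:70289675-70289704, minus strand): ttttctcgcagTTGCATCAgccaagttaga
GARS (chr7:30594834-30594863, plus strand): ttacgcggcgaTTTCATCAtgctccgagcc
MARS (chr12:57488053-57488082, plus strand): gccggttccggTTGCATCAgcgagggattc
NARS (chr18:57621804-57621833, minus strand): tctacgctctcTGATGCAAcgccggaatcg
TARS (chr5:33440956-33440985, plus strand): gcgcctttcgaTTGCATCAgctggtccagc

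The libraries were those of a colon epithelial line. EPCAM, an epithelial adhesion molecule, was at 531 to 743 FPKM over the 4 libraries and the keratin KRT8 at 2346 to 6798, while the leukocyte genes PTPRC and CD3E were at most 0.0527 and the endothelial genes CDH5 and VWF at most 0.0571. The monocyte gene CD14 was at 1.74 to 2.76 FPKM over the 4 libraries. The fibroblast collagen gene COL1A1 was at 0.562 to 0.816, and COL1A2 and DCN at most 0.00647. CDX2, an intestinal transcription factor, was low at 2.19 to 2.87, and CDX1 stayed below 1. FPKM summed to 2801000 and 2848000 over all genes in the precursor and precursor control libraries and to 1463000 and 1546000 in the antimir and antimir control libraries, so levels from the 2 tables are given side by side and not compared. Depth is unknown, since FPKM carries no read counts. Differences are in log2(FPKM + 1) between the treated library and its own control, centred on the median of all genes whose 2 libraries averaged at least 1 FPKM, and they understate the change of low genes.

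Of the 37 members, 36 passed that filter in both comparisons, and none of these rested on 1 library alone: their lowest value anywhere was 3.97 FPKM, for CHAC1 in the antimir library. CBS, the first enzyme of transsulfuration, was listed at 0 in all 4 libraries for all 20 of its transcripts, in a locus the tables draw over several megabases (hg19 chromosome 21, 38435146 to 45747259). It therefore gave no measurement. The members' share of the FPKM total was 0.146% with the precursor and 0.135% in its control, and 0.176% in the antimir library against 0.194% in its control. The tRNA synthetases TARS, GARS and MARS, the folate enzyme SHMT2 and the transporter heavy chain SLC3A2 were at the top in both libraries of the precursor table, and SESN2, CTH and NUPR1 at the bottom.

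**Figure D1:**
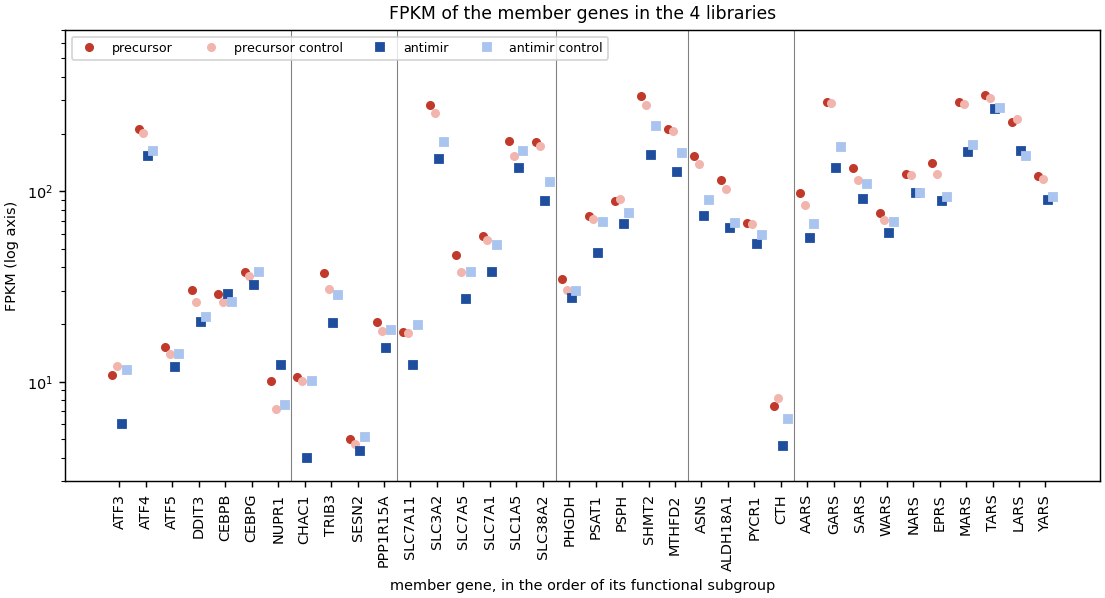
FPKM on a log axis of the 36 members with a value, in the precursor, precursor control, antimir and antimir control libraries, with grey lines between functional subgroups; each point is 1 library. ATF4 stands between 153 and 211 FPKM in all 4, and CHAC1 is at 3.97 in the antimir library against 10.1 in its control.

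In the antimir library most members were lower than in the control. Of the 36 measured, 31 were below 0 (86.1%), against 50.0% of all 14190 genes and 50.5% of the 11060 protein-coding ones. The 5 above 0 were NUPR1, CEBPB, LARS, NARS and TARS, where 49.5% of protein-coding genes were above 0. At 1.2-fold, 12 members were lower (33.3%), against 11.5% of all genes and 8.54% of protein-coding ones, and 1 was higher (2.78%), against 14.1% and 9.99%. At 1.5-fold, 3 members were lower (8.33%), where 2.9% of all genes and 0.886% of protein-coding genes were, and 1 member was higher, where 5.07% of all genes and 1.75% of protein-coding genes were. Those 3 were CHAC1, ATF3 and SLC7A11, and the higher one was NUPR1. The median over the members was -0.20, a 0.871-fold level, and -0.19 with the most abundant transcript of each gene in place of the sum. Transporters, stress regulators and serine and folate enzymes were lowest as groups, while ATF4 itself and 5 of 10 tRNA synthetases (NARS, EPRS, MARS, TARS and YARS) lay within 0.1 of their control.

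In the precursor library the members lay close to their control. No member was 1.5-fold higher or lower, where 3.36% and 3.32% of all 16982 genes and 0.529% and 0.617% of protein-coding genes were, and the median was 0.05. At 1.2-fold, NUPR1 and SLC7A5 were higher, where 9.49% of all and 6.42% of protein-coding genes were, and 0 members were lower (2 with the most abundant transcript only, ATF3 and CHAC1), where 10.6% and 6.59% were. Of the 36, 31 were above 0 (86.1%, against 50.0% of all and 51.3% of protein-coding genes) and 5 below (13.9%, against 48.7% of protein-coding genes). These are small differences: 5 below 0 became 13 with the most abundant transcript only, and 9 when centred on protein-coding genes. Whole-locus entries, kept out of the sums, were listed for 36 members, CBS among them and CEBPB not. Before centring, 3 of these 36 entries were higher with the precursor, at a sum of 15.6 FPKM against 19.5. With the antimir 9 of the 36 were higher, at 16.6 FPKM against 18.1. The upward lean of the centred sums with the precursor was not seen in these low, uncentred entries. The share of higher values among the whole-locus entries of all genes was not computed, so these counts only describe the entries. The pattern of higher with the precursor and lower with the antimir held for 27 of 36 members (75.0%), against 3948 of 13757 genes measured in both comparisons (28.7%), and for 18 of 36 with the most abundant transcript only. With 31 members above 0 with the precursor and 31 below 0 with the antimir, the 27 largely follow from these 2 counts. They are no separate finding. The 2 comparisons share no library.

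**Figure D2:**
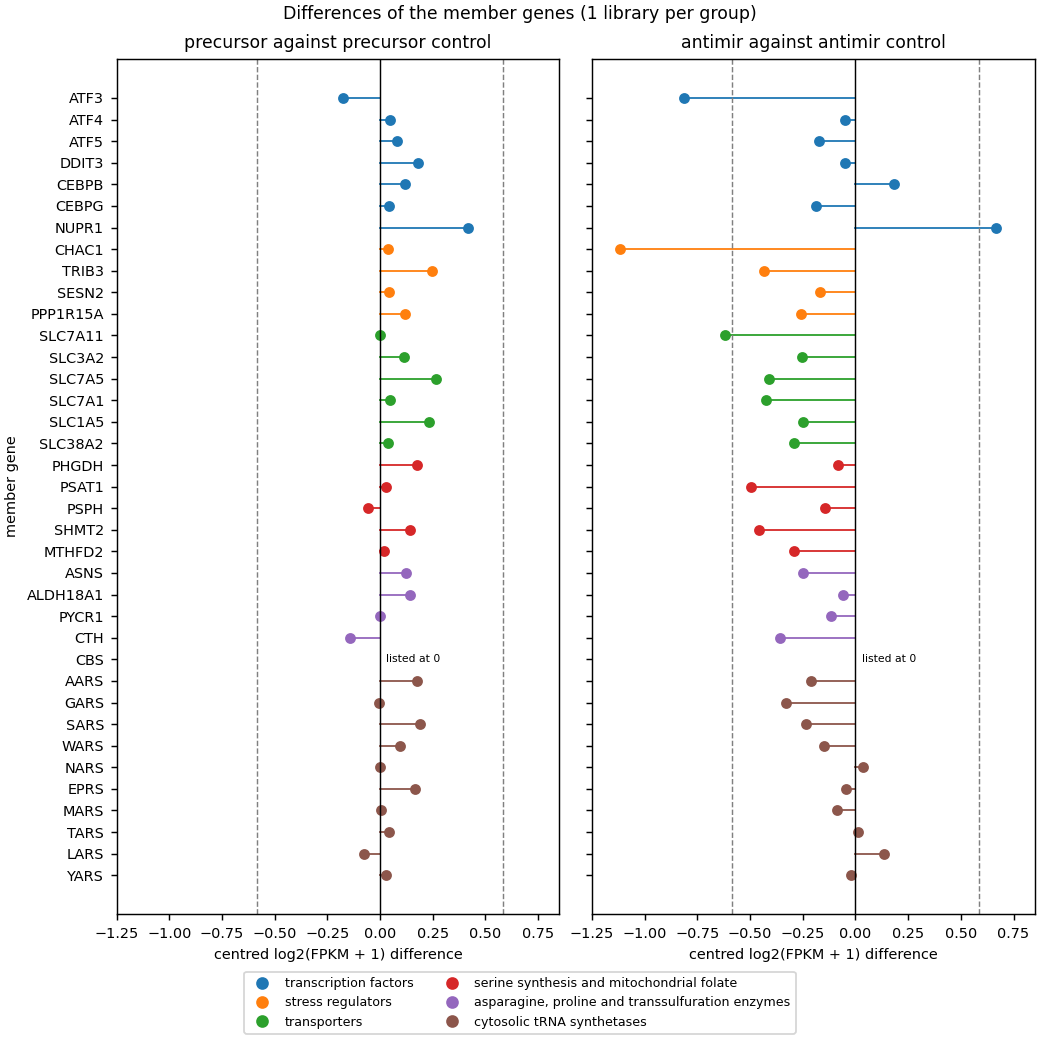
Centred log2(FPKM + 1) differences of the members, in the precursor library against its control (left) and the antimir library against its control (right), 1 library per group; colours mark functional subgroups and dashed lines 1.5-fold. On the right 31 of 36 points lie below 0, with CHAC1 at -1.12 and NUPR1 at 0.67; on the left no point passes a dashed line.

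ATF4, the activator at the head of the response, was at 211 FPKM with the precursor, against 201 in its control, a difference of 0.05. It was at 153 FPKM in the antimir library, against 162 in its control, a difference of -0.05. Its mRNA level was thus close to the control in both pairs. Nearly all of the signal came from 1 transcript, ENST00000396680.1, which held 98.6% of the level in the antimir control. The locus lies on hg19 chromosome 22, 39915700 to 39918691. Processed copies of ATF4 carried signal in the precursor table, with ATF4P3 at 43.5 FPKM in the precursor library, against 42.0 in its control, but not in the antimir table, where it was at 0.0234 against 0.0449. How reads shared with such copies were assigned is not given in the sources used here.

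ATF3, a stress-induced factor that ATF4 switches on, was among the lowest members with the antimir. It was at 5.98 FPKM in the antimir library, against 11.6 in its control (-0.81), lower than all but 1.9% of measured genes. With the precursor it was at 10.8 FPKM against 12.1 (-0.17), so it lay below its control in both comparisons. Its transcripts diverged: ENST00000366985.1 was at 2.77 FPKM in the antimir library, against 7.52 in its control, while ENST00000366987.2 was at 1.81 against 0.243. In the authors' deposited table of the antimir, neither was called, with q-values of 0.711 and 0.902. In their precursor table, ENST00000341491.4 was called lower, at 1.35 FPKM against 3.55 (q-value 8.8e-10). In the same deposited table of the authors, ENST00000366983.1 was called higher, at 0.395 FPKM against a control listed at 0 (q-value 0.0304). ENST00000366987.2 was higher with the precursor too, at 2.32 FPKM against 8.9e-05 in its control, and was not called there.

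NUPR1, a small stress-induced chromatin protein, went the other way. It was at 12.2 FPKM in the antimir library, against 7.54 in its control (0.67), and at 10.2 FPKM in the precursor library, against 7.22 in its control (0.42). It was thus the highest member in both comparisons. Transcript ENST00000395641.2 was at 7.33 FPKM with the precursor, against 4.47 in its control, called higher in the authors' deposited table (q-value 0.0463). The same transcript was at 7.34 FPKM in the antimir library, against 2.97 in its control, not called in the authors' deposited table (q-value 0.499).

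The other factors differed less. CEBPG, a dimer partner of ATF4, was at 32.1 FPKM in the antimir library, against 37.7 in its control (-0.19), and at 37.8 against 36.1 with the precursor (0.04). ATF5, a relative of ATF4 that is also controlled at translation, and DDIT3, the pro-apoptotic factor CHOP, had antimir differences of -0.17 and -0.05. CEBPB was above its control in both comparisons, by 0.18 with the antimir and 0.12 with the precursor. DDIT3 and MARS share 1 locus in the tables, so any reads they share may count towards either.

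Among the stress regulators all 4 were below 0 with the antimir, with a median of -0.35. CHAC1, an enzyme that degrades glutathione and a sensitive readout of ATF4 activity, had the largest difference of any member; with the most abundant transcript only it stood at -0.91, and ATF3 at -1.15, SHMT2 at -1.01 and NUPR1 at 1.10 differed more. It was at 3.97 FPKM in the antimir library, against 10.1 in its control, a difference of -1.12 and lower than all but 1.39% of measured genes. In the precursor library it was at 10.5 FPKM, with 10.1 in its control (0.04). The gene lies on hg19 chromosome 15, 41245160 to 41248710.

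The 2 main CHAC1 transcripts were both lower with the antimir and differed in opposite directions with the precursor. ENST00000446533.3 was at 1.51 FPKM in the antimir library, against 4.56 in its control, called lower in the authors' deposited table (q-value 0.00015). ENST00000487220.1 was at 2.21 FPKM in the antimir library, against 5.14 in its control, not called in the authors' deposited table (q-value 0.412). In the precursor library ENST00000446533.3 was at 4.28 FPKM, with 2.99 in its control, called higher in the authors' deposited table (q-value 0.0205), whereas ENST00000487220.1 was at 5.48 against 6.68. The CHAC1 difference of 0.04 with the precursor became -0.27 with the most abundant transcript only.

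TRIB3, a pseudokinase that restrains ATF4 in a feedback loop, was at 20.2 FPKM in the antimir library, against 28.5 in its control (-0.43). It was at 37.1 FPKM with the precursor, against 30.7 in its control (0.24). PPP1R15A, the stress-induced subunit that directs a phosphatase to eIF2, was at 15.1 FPKM in the antimir library, against 18.7 in its control (-0.26), and at 20.5 against 18.5 with the precursor (0.12). Its antimir difference was -0.69 with the most abundant transcript only. SESN2, an inhibitor of TORC1 that binds leucine, was the least abundant measured member on average, at 4.32 against 5.14 FPKM with the antimir (-0.17) and 4.99 against 4.73 with the precursor (0.04).

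All 6 amino acid transporters were below 0 with the antimir and above 0 with the precursor, with medians of -0.35 and 0.08; SLC7A11 stood at 0.002 with the precursor and went below 0 when centred on protein-coding genes. Summed over the group they held 446 FPKM in the antimir library, against 565 in its control, and 771 with the precursor, against 696 in its control. SLC7A11, the cystine carrier that feeds glutathione synthesis, was at 12.2 FPKM in the antimir library, against 19.8 in its control (-0.62), and at 18.3 against 17.9 with the precursor (0.00). With the most abundant transcript only, its antimir difference was -0.37 and no longer past 1.5-fold. SLC7A5, the light chain of the main leucine transporter, was at 27.2 FPKM in the antimir library, against 37.5 in its control (-0.41), and at 46.2 against 37.6 with the precursor (0.27). With the most abundant transcript only, the antimir differences of SLC7A5 and SLC3A2 were -0.64 and -0.62, past 1.5-fold.

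SLC3A2, the heavy chain that both of those light chains need, was at 148 FPKM in the antimir library, against 182 in its control (-0.26), and at 284 against 258 with the precursor (0.12). SLC7A1, a carrier of arginine and lysine, was at 37.6 FPKM in the antimir library, against 52.2 in its control (-0.42), and at 58.0 against 55.2 with the precursor (0.05). SLC38A2, a sodium-coupled carrier of small neutral amino acids, was at 88.5 FPKM in the antimir library, against 111 in its control (-0.29), and at 181 against 173 with the precursor (0.04). Each of the 3 was thus lower with the antimir and within 0.12 of its control with the precursor.

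SLC1A5, the glutamine exchanger, was at 132 FPKM in the antimir library, against 162 in its control (-0.25), and at 184 against 154 with the precursor (0.23). Its sum hid opposite transcripts. ENST00000306894.4 was at 2.87 FPKM in the antimir library, against 42.7 in its control, called lower in the authors' deposited table (q-value 0.0161). ENST00000542575.1 was at 69.6 FPKM in the antimir library, against 50.7 in its control, so that the difference of the gene was 0.48 with the most abundant transcript only. In the precursor library ENST00000306894.4 was at 39.6 FPKM against 11.3, called higher in the authors' deposited table. ENST00000542575.1 was there at 58.4 FPKM against 72.7, called lower in the authors' deposited table (q-value 0.031).

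**Figure D3:**
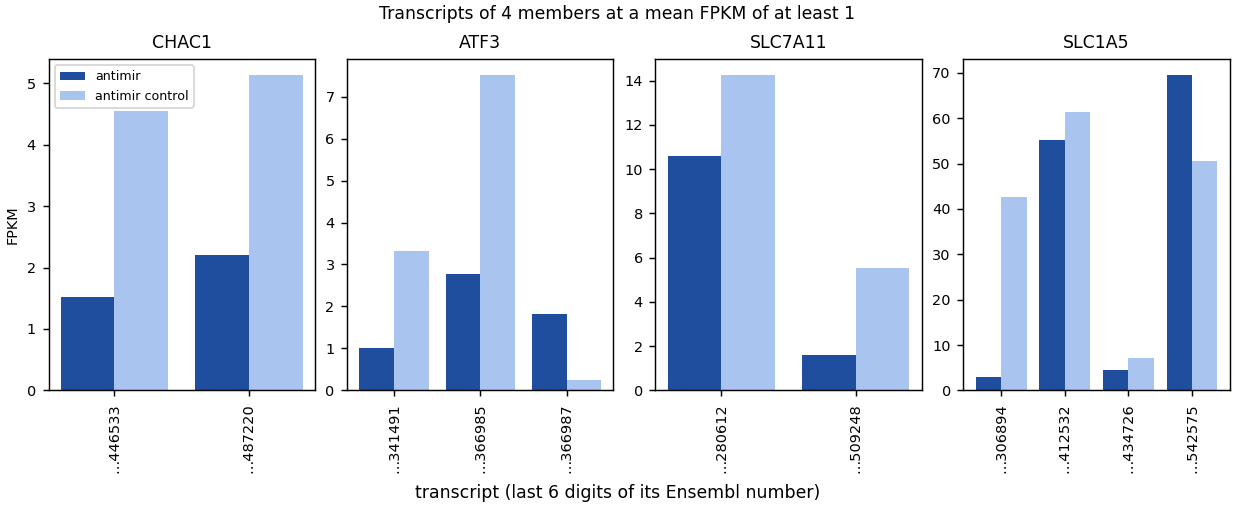
FPKM of the transcripts of CHAC1, ATF3, SLC7A11 and SLC1A5 with a mean of at least 1 in the antimir table, in the antimir library (dark bars) and its control (light bars), 1 library each. Both CHAC1 transcripts and both SLC7A11 transcripts are lower in the antimir library, whereas ATF3 and SLC1A5 each have a transcript that is higher.

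Serine is made from a glycolytic intermediate by PHGDH, PSAT1 and PSPH, and SHMT2 and MTHFD2 pass its carbon into the mitochondrial folate pool. All 5 genes were below 0 with the antimir (median -0.29) and 4 of 5 above 0 with the precursor (median 0.03, or -0.05 with the most abundant transcript only). PSAT1, the aminotransferase step, was at 47.4 FPKM in the antimir library, against 69.0 in its control (-0.49), and at 74.3 against 71.8 with the precursor (0.03). SHMT2 was at 156 FPKM in the antimir library, against 220.0 in its control (-0.46), and at 317 against 283 with the precursor (0.14). Its 35 listed transcripts shared that signal unevenly, and the antimir difference was -1.01 with the most abundant one only.

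MTHFD2, the dehydrogenase of the same folate pathway, was at 127 FPKM in the antimir library, against 159 in its control (-0.29), and at 212 against 206 with the precursor (0.02). The first and last steps of serine synthesis stood closer to the control. PHGDH and PSPH had antimir differences of -0.08 and -0.14, and precursor differences of 0.17 and -0.06. A pseudogene, PSPHP1, was at 25.7 FPKM with the precursor, against 21.9 in its control, but was listed at 0 in both libraries of the antimir table, so the level of PSPH is uncertain for the same reason as that of ATF4.

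The 4 measured enzymes of asparagine, proline and sulfur amino acid metabolism were all below 0 with the antimir (median -0.18). ASNS, asparagine synthetase and a standard target of ATF4, was at 73.9 FPKM in the antimir library, against 90.3 in its control (-0.25), and at 154 against 139 with the precursor (0.12). CTH, which releases cysteine from cystathionine, was at 4.58 FPKM in the antimir library, against 6.35 in its control (-0.36), and at 7.47 against 8.21 with the precursor (-0.14). ALDH18A1 and PYCR1, the first and last enzymes of proline synthesis from glutamate, differed by -0.06 and -0.12 with the antimir. ALDH18A1 was at 63.8 FPKM in the antimir library, against 68.2 in its control, and at 115 against 102 with the precursor (0.14). Its antimir difference was 0.17, above 0, with the most abundant transcript only.

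The 10 cytosolic tRNA synthetases among the members, which load amino acids onto tRNA, held the highest summed FPKM of the groups. Their antimir differences ran from -0.33 to 0.13 with a median of -0.07, and 7 were below 0. GARS, the glycine enzyme, was at 132 FPKM in the antimir library, against 171 in its control (-0.33), and at 293 against 289 with the precursor (0.00). TARS, the threonine enzyme and the most abundant member in the antimir library, was at 269 FPKM there and 274 in its control (0.01), and at 321 against 307 with the precursor (0.04). MARS, the methionine enzyme, was at 161 FPKM in the antimir library, against 175 in its control (-0.09), and at 293 against 287 with the precursor (0.00). With the most abundant transcript only, the MARS differences were -0.38 with the antimir and -0.12 with the precursor.

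Within this group AARS and SARS had antimir differences of -0.21 and -0.23, and LARS, the leucine enzyme, of 0.13. EPRS, YARS and NARS lay between -0.05 and 0.04. WARS, the tryptophan enzyme, is also known as an interferon-induced gene in human cells. It was at 60.5 FPKM in the antimir library, against 69.0 in its control (-0.15). All 14 listed interferon-induced genes were at least 1.5-fold higher there, where 5.07% of all genes were, with a median of 1.81. That list was chosen with earlier results of these data known, so its count is no independent finding. The group's median with the precursor, 0.04, turned to -0.06 with the most abundant transcript only.

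Other genes of the pathway were read from separate lists. Of 36 other reported ATF4 targets 32 were measured with the antimir, 24 were below 0 (75.0%), 11 were at least 1.2-fold lower (34.4%, where 11.5% of all genes were) and the median was -0.14. That median was -0.01 over 31 genes with the most abundant transcript only. The lowest were the serine and alanine exchanger SLC1A4, at 3.10 FPKM in the antimir library, against 6.12 in its control (-0.76), the TORC1 inhibitor DDIT4, at 55.3 against 83.3 (-0.55), and LARP6, at 1.30 against 2.42 (-0.53). The highest were HMOX1, the haem-degrading enzyme, at 3.75 against 2.86 (0.34), and the taurine carrier SLC6A6, at 15.8 against 13.4 (0.26). SQSTM1, an autophagy receptor, followed at 215 against 195 (0.18). With the precursor, 23 of 33 were above 0 and the median was 0.06. The highest there were BBC3, a pro-apoptotic protein, at 9.32 FPKM against 6.41 (0.46), ADM2 (0.28) and the glycine carrier SLC6A9 (0.26), and the lowest LARP6 (-0.26), TNFRSF10B (-0.21) and VLDLR (-0.11).

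Sensors and machinery upstream of ATF4 had medians near 0. Over 18 genes the median was 0.03 with the antimir, with 11 above 0, and -0.01 with the precursor, with 8 above 0. PKR (EIF2AK2), itself induced by interferon, was at 75.0 FPKM in the antimir library, against 42.6 in its control (0.84), and at 42.2 against 48.4 with the precursor (-0.21). PERK (EIF2AK3) was at 12.1 FPKM in the antimir library, against 8.15 in its control (0.56), and at 16.4 against 13.0 with the precursor (0.29). GCN2 (EIF2AK4), HRI (EIF2AK1) and their substrate EIF2S1 lay within 0.10 of the control with the antimir, at 16.9 against 16.2 FPKM, 217 against 230 and 113 against 113. The lowest of the list with the antimir were PPP1CA (-0.24), EIF2S3 (-0.17) and EIF2B4 (-0.13), and with the precursor EIF2B4 (-0.27), EIF2B5 (-0.22) and EIF2AK2 (-0.21).

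Lists close in function also had medians near 0 with the antimir. Other cytosolic synthetases and their scaffold proteins had a median of 0.02 over 13 genes, with 7 above 0, and mitochondrial synthetases 0.07 over 16 genes, with 12 above 0. Genes of the unfolded protein response of the endoplasmic reticulum had a median of 0.02 over 15 genes, and genes of amino acid sensing by TORC1 -0.07 over 20. The median of the other cytosolic synthetases was -0.09 with the most abundant transcript only. With the precursor the same lists had medians of -0.07, -0.03, 0.13 and -0.01, with 14 of 15 unfolded protein response genes above 0. Without centring, which removed 0.022 with the precursor and -0.038 with the antimir, the medians of the sensors, the other cytosolic synthetases and the unfolded protein response with the antimir, and of the sensors and TORC1 genes with the precursor, take the other sign. The genes farthest from 0 with the antimir were AIMP1 (0.35) and QARS (-0.30) among cytosolic synthetases, VARS2 (0.61) and WARS2 (-0.36) among mitochondrial ones, DNAJB9 (0.43) and ERN1 (-0.34) in the unfolded protein response, and MTOR (0.26) and DEPDC5 (-0.57) in amino acid sensing. With the precursor they were EEF1E1 (-0.21), WARS2 (0.25), SEL1L (0.58) and WDR24 (0.53) in the same order.

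**Figure D4:**
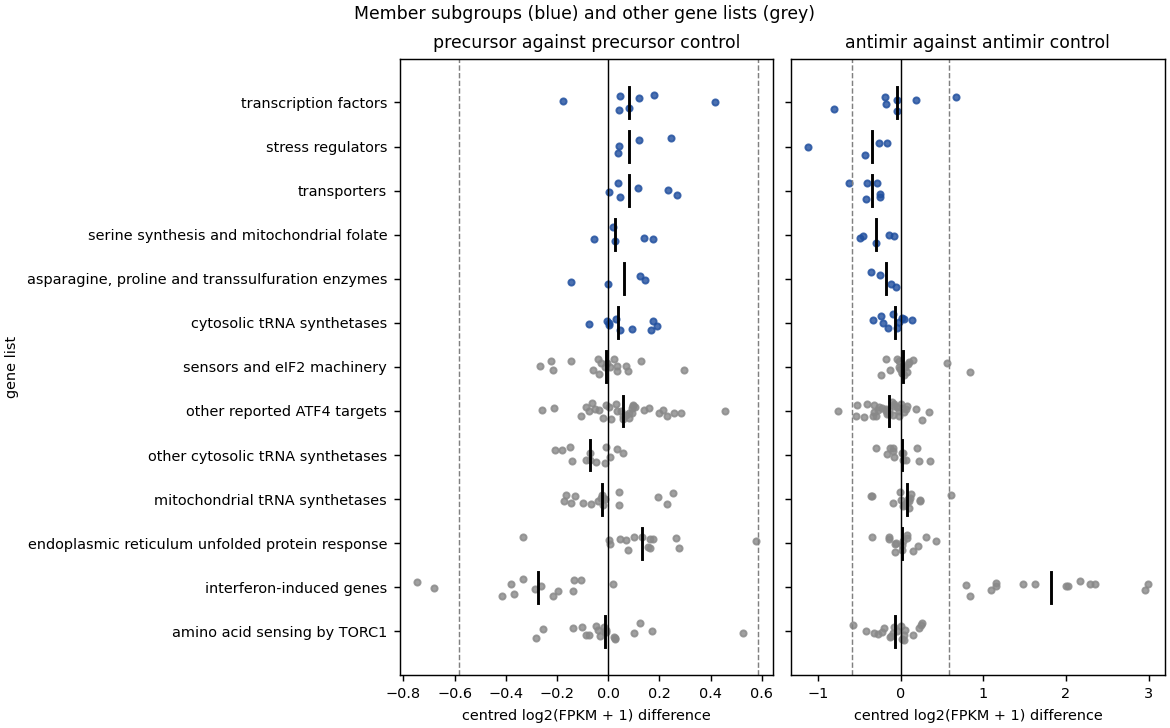
Centred log2(FPKM + 1) differences in the precursor library against its control (left) and the antimir library against its control (right), 1 point per gene, black bars for medians, blue for the member subgroups and grey for other lists; dashed lines mark 1.5-fold. With the antimir the medians of transporters and stress regulators lie at -0.35, that of interferon-induced genes at 1.81.

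Other gene classes differed between the same libraries. With the antimir, 75 of 80 ribosomal protein genes were below 0 with a median of -0.17, and all 12 mitochondrially encoded protein genes were below 0 with a median of -0.32. With the precursor the medians of these classes were 0.06 and 0.33, the same signs as those of the members. Interferon-induced genes had a median of -0.27 with the precursor. The part of these classes in the members' differences was not tested, and in bulk RNA a lower level per cell cannot be told apart from fewer cells with that RNA.

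The ranges of members with and without each sequence feature overlapped. With the antimir, the 12 members with the promoter element had a median of -0.25, 10 of them below 0, and the 17 measured members without it -0.17, 16 of them below 0. Over all measured genes the medians were -0.02 with the element (252 genes) and 0.00 without it. With the precursor, the 12 members with the element had a median of 0.04, 10 of them above 0, and the 17 without it 0.12, 16 of them above 0, beside 0.02 and 0.00 over all measured genes. The 5 members with a miR-23b seed site were all below 0 with the antimir, from -0.42 to -0.17 with a median of -0.29, and all above 0 with the precursor, with a median of 0.04. The 31 without a site had medians of -0.17 and 0.08, with 26 below 0 with the antimir and 26 above 0 with the precursor. Over all measured genes with a site, 2448 with the antimir and 2488 with the precursor, the medians were 0.00 and -0.02. Of these, 1234 were below 0 with the antimir and 1084 above 0 with the precursor. Of the genes without a site, 4331 of 8574 were below 0 with the antimir (median -0.002). With the precursor, 4709 of 8807 such genes were above 0 (median 0.013).

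Most of the authors' calls on member transcripts were in the precursor table. In the authors' deposited table of the precursor, 37 of 261 tested member transcripts were called higher and 21 lower, where 6.91% and 6.66% of all tested transcripts were. These calls of the authors' deposited table lay in 21 genes and 12 of them rested on a transcript listed at 0 in 1 library; 19 genes had a transcript called higher and 12 one called lower. In the authors' deposited table of the antimir, 0 of 234 tested member transcripts were called higher and 2 lower, those of CHAC1 and SLC1A5 given above, where 0.243% and 0.171% of all tested transcripts were. Since no replicate entered either table, these calls compare 2 libraries and not 2 conditions.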

How the data were processed

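RNA from 4 HT29 cultures, 1 library per group, had been sequenced. Per the submitters' processing notes, bcl2fastq 1.8.3, TopHat2 2.0.11, Cufflinks 2.2.0, Cuffdiff and the build hg19 were used; settings and annotation are not given in the sources used here. Deposited were 2 tables by the authors, 1 per comparison, with FPKM per transcript and, per the file headers, their own p-value, q-value and call for each entry. The second library of each table, whose name ends in N, was taken as the control, as the only other library there. FPKM carries no counts, so depth is unknown and no interval is given.

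Transcript entries were summed per gene (Python 3.11.15, pandas 2.3.3), leaving out failed entries (1321 and 1528). Genes with no transcript entry used their gene entry. Differences of log2(FPKM + 1) were taken where the mean FPKM reached 1 and centred on their median (0.022 for the precursor, -0.038 for the antimir). Counts past 1.5-fold are descriptions, since 1 library per group allows no test. The calculation was checked on simulated data. The mitochondrially encoded genes were those on the mitochondrial chromosome. Gene starts are given 1-based.

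The members and lists were chosen with earlier results of these data known. Values were given for members differing by at least 0.26 in either comparison and for the 2 most abundant of each subgroup; from other lists the genes with the highest and lowest differences are named (the rule set 3 each way, and for most lists fewer are given), with the 4 eIF2 kinases and EIF2S1. NUPR1L, CASTOR1, SAMTOR and PECAM1 were not matched by symbol and not analysed here. GENCODE 29 UTRs were matched by gene identifier. RefSeq promoters of the members were matched by symbol, then by Ensembl identifier, then by synonym. For all genes past the expression filter, promoters were matched by symbol or by a unique synonym only. The 8 alternatives are given in the closing section.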

Additional observations from a re-analysis of the deposited data

How the results depend on the processing

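The 1.5-fold counts, the members below 0, the medians of the members and their subgroups and the 22 members given with full values were recomputed under 8 alternatives: a pseudocount of 0.1, a mean FPKM of at least 5, no filter on low values, the most abundant transcript only, failed entries kept, tested transcripts only, no centring and centring on protein-coding genes. The median over the members stayed between 0.04 and 0.07 with the precursor and between -0.24 and -0.19 with the antimir, and members below 0 with the antimir numbered 28 to 33. With the most abundant transcript only, members at least 1.5-fold lower with the antimir numbered 6 (CHAC1, ATF3, PPP1R15A, SLC3A2, SLC7A5 and SHMT2) in place of 3, the median of the stress regulators with the antimir was -0.58, the median of the tRNA synthetases with the precursor was -0.064, and members below 0 with the precursor numbered 13. That last number was 9 at a mean FPKM of at least 5 and 9 with centring on protein-coding genes, where several members lie close to 0. The cause of the differences between sum and most abundant transcript was not tested. Among single members the most abundant transcript gave antimir differences of 0.479 for SLC1A5 and 0.171 for ALDH18A1, both below 0 as sums, of -0.384 for MARS, -0.433 for SLC38A2 and -0.125 for MTHFD2, and precursor differences of -0.349 for ATF3, 0.576 for NUPR1, -0.274 for CHAC1, -0.089 for SHMT2, -0.011 for CTH, -0.153 for GARS, -0.116 for MARS and 0.173 for TARS. No named member past 1.5-fold turned its direction. After seeing the data, the 1.2-fold counts, the sign pattern over both comparisons and the medians of the other lists were put through the same 8 alternatives. Members at least 1.2-fold higher with the precursor numbered 1 in place of 2 at a mean FPKM of at least 5 and 1 with centring on protein-coding genes. With the most abundant transcript only, 2 members in place of 0 were at least 1.2-fold lower with the precursor, and 3 in place of 1 at least 1.2-fold higher with the antimir. Members at least 1.2-fold lower with the antimir numbered 17 in place of 12 without centring. Those higher with the precursor and lower with the antimir numbered 18 to 30. Splits by sequence, ribosomal and mitochondrially encoded genes were not recomputed. No paired analysis was possible because every group held 1 library. The same lack of replicates, with an unknown depth, limits each value, and the choice of transcripts alone moved single members by up to 0.729 on the log2 scale.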
